A study of Homo sapiens with 6 samples.

Results

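Podocytes are the epithelial cells that wrap the capillaries of the kidney glomerulus. In the AB 8/13 line, a conditionally immortalized human podocyte line that divides at the permissive temperature and differentiates at the restrictive one, the transcript levels of 10 genes that restrain signalling by MAP kinases are described. They are the phosphatase genes DUSP4, DUSP5, DUSP6, DUSP7 and DUSP8, the Sprouty genes SPRY1, SPRY2 and SPRY4, and the SPRED genes SPRED1 and SPRED2. Members were chosen by gene name, with earlier results of the same treatment comparison known, and each of the 10 names matched 1 of the 20745 genes of the table. The study sequenced RNA from 3 vehicle cultures and from 3 cultures given 1 µM levamisole, a worm treatment that is also given to children with nephrotic syndrome to spare steroids, for 24 h. By the treatment protocol in the labels both groups were in serum-free medium, whereas by the methods the vehicle group stayed in serum-containing complete medium. All 6 libraries come from this 1 line, from different passages by the methods.

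The level used throughout is the base mean of the authors' table. It is the mean, over the libraries of their fit, of the read counts of a gene after division by a size factor for each library, and it joins vehicle and levamisole cultures in 1 value. It therefore has no error, no number of replicates and no value per culture, so no difference between genes could be tested. The depth of each library is likewise unknown. The effect of levamisole on these genes was not analysed here.

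When a growth factor receptor fires, RAS activates the RAF, MEK and ERK kinases in turn, and ERK in the nucleus switches on genes that include its own inhibitors. Among these are dual-specificity phosphatases (DUSPs), which strip the activating phosphates from MAP kinases, and Sprouty and SPRED proteins, which act upstream, between the receptor and RAF. In the developing kidney, Sprouty 1 is known for restraining receptor signalling in the ureteric bud. The DUSP genes differ in target. DUSP4 and DUSP5 are nuclear and DUSP6 and DUSP7 are cytoplasmic enzymes that act on ERK, DUSP4 on JNK as well. DUSP8 prefers the stress kinases JNK and p38, so the name of ERK inhibitor fits it less well than the others.

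All 10 genes were measured above the middle of the table. Their base means ran from 41.7 for SPRY1 to 607 for SPRY4, a 14.6-fold range. The median over the 10 genes was 110, against 21.8 over all 20745 genes. Every one of the 10 had a base mean of at least 5, as did 64.3% of all genes. By percentile of base mean among all genes they lay between 57.7 for SPRY1 and 93.4 for SPRY4, and 4 of them, SPRY4, DUSP5, SPRED2 and SPRY2, lay above the 75th percentile. As a group they held 0.0286% of the summed base means.

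**Figure D1:**
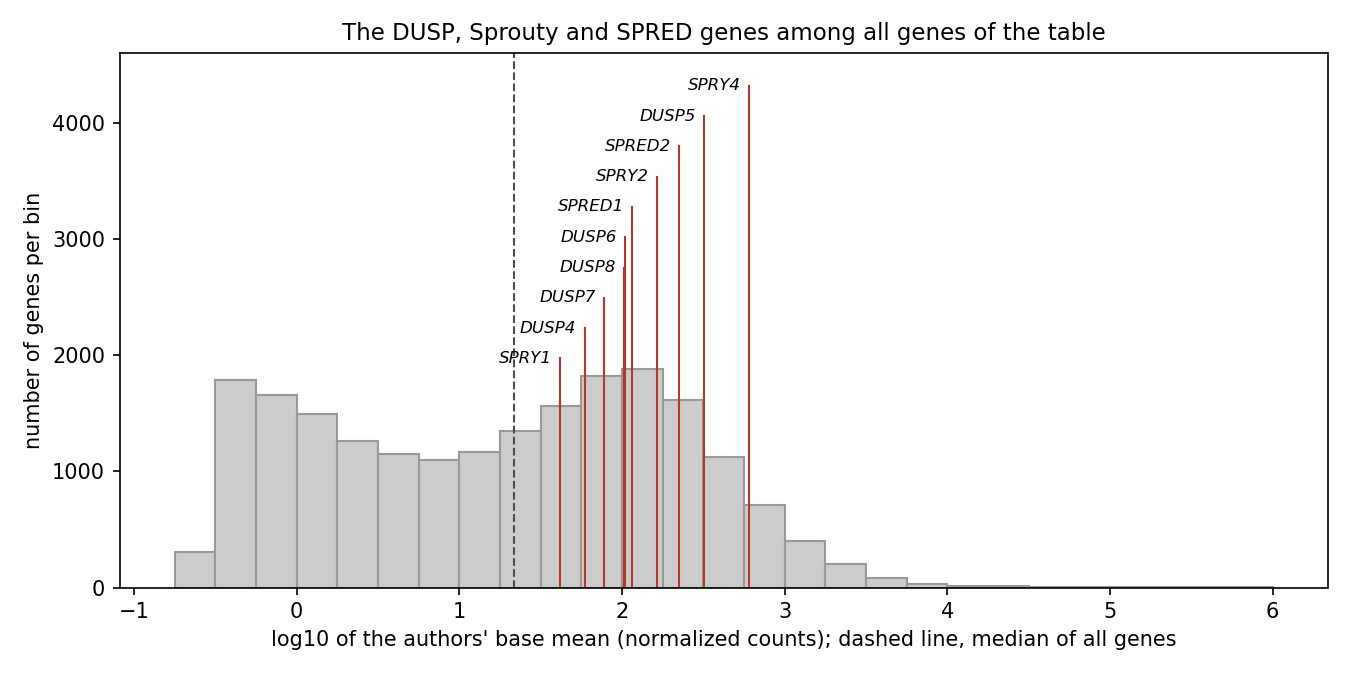
Number of genes per bin of the log10 of the authors' base mean, with a red line at each of the 10 genes (line height has no meaning) and a dashed line at the median of all genes, 21.8. Each of the 10 lies to the right of the median, from SPRY1 at 41.7 to SPRY4 at 607.

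Of DUSP4 and DUSP5, the nuclear phosphatases among the 10, DUSP5 had the higher level. DUSP5 (ENSG00000138166; GRCh38 chromosome 10, 110497907 to 110511533, plus strand) binds and inactivates ERK in the nucleus, and its base mean was 319, at percentile 87.5. DUSP4 (ENSG00000120875; chromosome 8, 29333064 to 29350684, minus strand) had a base mean of 58.9, at percentile 62.5. The ratio of DUSP5 to DUSP4 was 5.41 in base mean and 15.5 in base mean per kb of exon. Both sat below DUSP1, the immediate early phosphatase of the same class that also acts on p38 and JNK, which had a base mean of 1981 at percentile 98.5. That single gene exceeded the 10 genes together, whose base means summed to 1818. DUSP2, the remaining nuclear phosphatase and one best known from lymphocytes, had a base mean of 1.53. Of the summed base mean of the 4 nuclear phosphatases, DUSP1 held 83.9%.

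The cytoplasmic ERK phosphatases were close to each other. DUSP6 (ENSG00000139318; chromosome 12, 89347235 to 89352501, minus strand), the ERK-selective phosphatase often read as a marker of ERK activity, had a base mean of 104. DUSP7 (ENSG00000164086; chromosome 3, 52048919 to 52056571, minus strand) had a base mean of 77.3, so that DUSP6 exceeded it 1.35-fold in base mean and 1.98-fold per kb of exon. No value of DUSP9, the remaining gene of this class, was used here.

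DUSP8 (ENSG00000184545; chromosome 11, 1554051 to 1572271, minus strand) had a base mean of 103, within 1.01-fold of DUSP6. It was the middle gene of its own class, the phosphatases of JNK and p38. DUSP10 had a base mean of 389, which was 3.77 times that of DUSP8 and 6.61 times per kb of exon. DUSP16 had a base mean of 33.5. The class order of DUSP10, DUSP8 and DUSP16 was therefore the same on both scales.

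**Figure D2:**
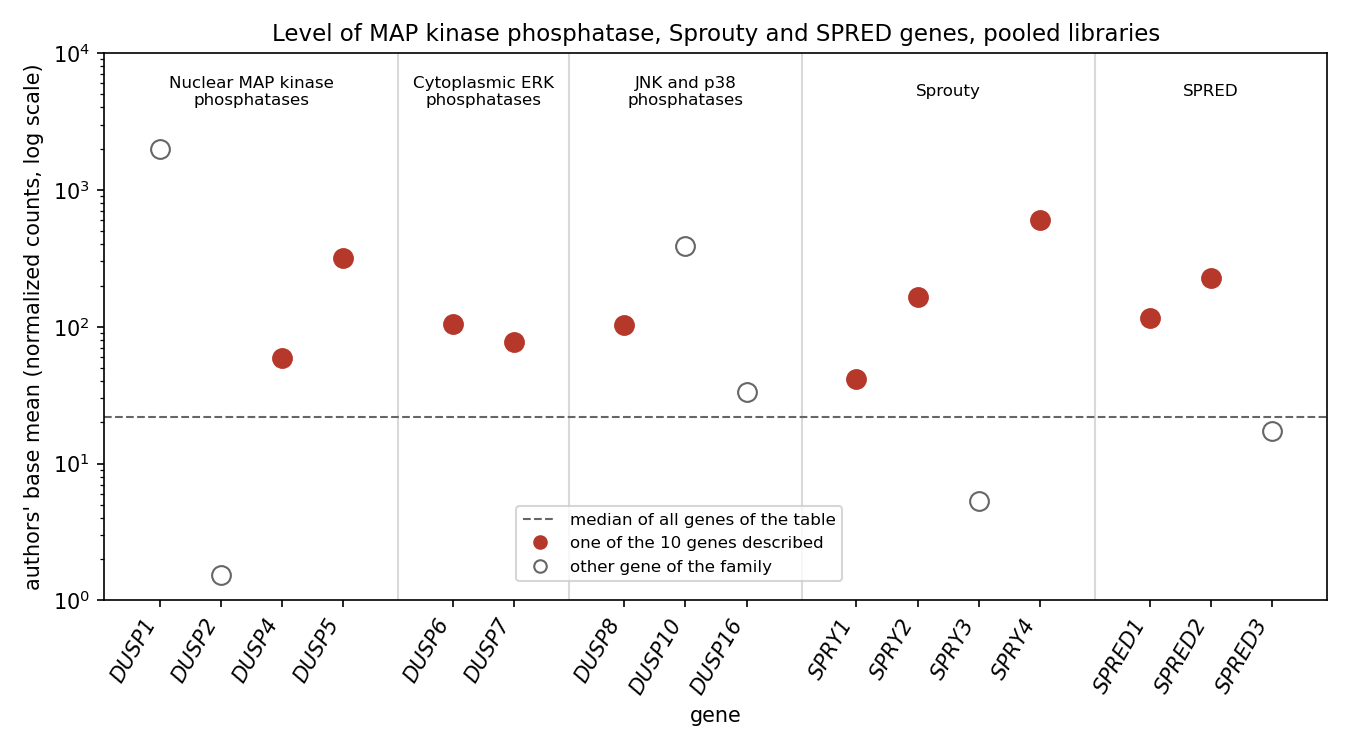
Authors' base mean (log scale) of each MAP kinase phosphatase, Sprouty and SPRED gene, grouped by class, with the 10 genes described as filled points and other genes of the families as open points. DUSP1 at 1981 stands above all others, whereas DUSP2, SPRY3 and SPRED3 lie below the median of all genes (dashed).

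In base mean the Sprouty genes spanned the whole range of the 10. SPRY4 (ENSG00000187678; chromosome 5, 142310427 to 142326455, minus strand), whose product restrains growth factor signalling to ERK and also binds the kinase TESK1, had the highest base mean of the 10, 607. SPRY2 (ENSG00000136158; chromosome 13, 80335976 to 80341126, minus strand), a docking protein for GRB2 and the ubiquitin ligase CBL, had a base mean of 165. SPRY1 (ENSG00000164056; chromosome 4, 123396795 to 123403760, plus strand) had the lowest, 41.7. The step from SPRY1 to SPRY2 was 3.96-fold in base mean and 4.88-fold per kb, and the step from SPRY2 to SPRY4 was 3.68-fold in base mean and 1.80-fold per kb. SPRY3, the Sprouty gene outside the 10, had a base mean of 5.30. SPRY4 held 74.1% of the summed base mean of the 4 Sprouty genes, or 59.8% per kb of exon.

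SPRED proteins carry an EVH1 domain, with which SPRED1 brings the RAS inhibitor neurofibromin to the membrane. SPRED2 (ENSG00000198369; chromosome 2, 65310851 to 65432637, minus strand) had a base mean of 226 and SPRED1 (ENSG00000166068; chromosome 15, 38252836 to 38357249, plus strand) one of 116. The ratio of SPRED2 to SPRED1 was 1.95 in base mean and 2.74 per kb of exon. SPRED3, the third gene of the family, had a base mean of 17.5. The gene of neurofibromin, NF1, had a base mean of 836.

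The order of the 10 genes depended on the scale. In an adapted CEL-seq protocol reads come mostly from the 3′ end of transcripts, so a count does not grow with transcript length in the way it does when whole transcripts are read, and the base mean was taken as the main scale. The exons of the 10 genes cover between 2.535 kb (DUSP5) and 7.75 kb (SPRED1), so the level was also given per kb. By base mean the order was SPRY4, DUSP5, SPRED2, SPRY2, SPRED1, DUSP6, DUSP8, DUSP7, DUSP4 and SPRY1. Per kb of exon, DUSP5 led at 126 and SPRY4 followed at 92.7. SPRY2 (51.4) then came before SPRED2 (41.0), DUSP6 (27.0) and DUSP8 (20.8) before SPRED1 (15.0), and DUSP7 (13.6) and SPRY1 (10.5) before DUSP4 (8.10). SPRY4, DUSP5, SPRED2 and SPRY2 were the leading 4 genes on both scales. Per kb of the Ensembl canonical transcript, a scale added after the data were seen, DUSP5 (129) and SPRY4 (124) were nearly equal. With no spread over cultures, it is not known which neighbours in the order differ beyond replicate error, and DUSP6 and DUSP8 were nearly equal in base mean.

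**Figure D3:**
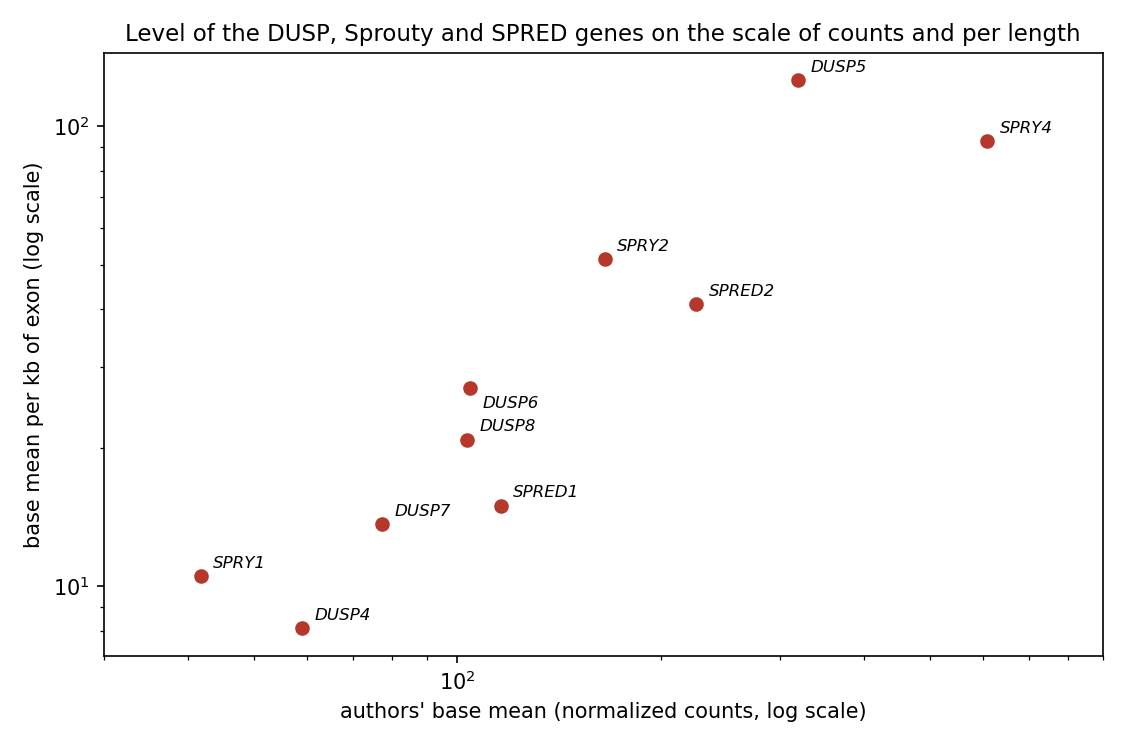
Authors' base mean (x axis, log scale) of the 10 genes against the base mean per kb of exon in GENCODE 44 (y axis, log scale), 1 point a gene. DUSP5 (126 per kb) lies above SPRY4 (92.7 per kb) on the y axis although SPRY4 has the higher base mean.

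The 10 genes lie on 10 different chromosomes, 3 on the plus and 7 on the minus strand. In the Ensembl canonical transcript, each of the Sprouty genes has its whole coding sequence in 1 exon, with coding lengths of 957 bases in SPRY1, 945 in SPRY2 and 897 in SPRY4. The coding sequence lies in 3 exons in DUSP6 and DUSP7, in 4 in DUSP4 and DUSP5, in 6 in DUSP8 and SPRED2, and in 7 in SPRED1. No exon of another gene on either strand covers the last 500 exonic bases of any of the 10, the stretch from which 3′ reads mostly come.

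RefSeq start-site windows on GRCh38.p14, each from 250 bases before to 50 after a start site, matched 8 of the 10 genes (all but DUSP4 and DUSP5) with 12 windows. Their GC content ran from 39.3% at the start site inside SPRED2 to 78.3% in DUSP8, with a median of 64.0% against 58.7% over 35116 windows of all genes. The windows were searched on both strands for letters that factors downstream of MAP kinases and other common factors are known to bind. The only window of SPRY4, from 142324198 to 142324497, lies inside the gene. Its annotated 5′ end, at 142326455, was therefore not covered. The cyclic AMP response element TGACGTCA, found in 1.85% of all windows, was in the window of DUSP8, and there in 2 copies. The ETS letters CCGGAA, in 17.2% of all windows, were in 2 of the 12 windows, 1 of SPRY1 and 1 of SPRY2. The letters TGANTCA, a loose form of the AP-1 site that allows any middle base, were in 7.71% of all windows. The TATA letters TATAAA were in 11.5%. Both were in 1 window of SPRED2, at a start site inside the gene. There TGANTCA was in 2 copies, TGACTCA and TGAATCA. Only TGACTCA has the middle C or G of the usual AP-1 site. The GC box GGGCGG, in 45.0% of all windows, was in 8 of the 12 windows, which belong to 7 of the 8 genes, all but DUSP6. The E-box CACGTG and the CArG box of serum response factor were in 7.26% and 1.29% of all windows, and in 0 of the 12. A CArG box can contain the TATA letters, and apart from that none of these motifs is contained in another. A match is a run of letters and says nothing of binding in these cells, and no value in the table bears on it. The matches to the cyclic AMP response element, ETS and AP-1 motifs are shown, since signalling kinases are known to act on factors of these classes, with the motif in capitals and the sequence read on the strand of the gene:
DUSP8, chr11:1572371-1572400, minus strand, motif from 118 bases before the start site: ccgggctccgcTGACGTCAcctgcccccga
DUSP8, chr11:1572327-1572356, minus strand, motif from 74 bases before the start site: ttggctgcaggTGACGTCAggggctttttt
SPRY1, chr4:123398308-123398335, plus strand, motif from 67 bases before the second of its start sites: gccctccgcagCCGGAAgggggccgcgg
SPRY2, chr13:80341252-80341279, minus strand, motif from 142 bases before the first of its start sites: ccctgcctcctCCGGAAaggcgagggcg
SPRED2, chr2:65366767-65366795, minus strand, motif from 6 bases before the start site inside the gene: taaccctcggaTGACTCAtccggtacaat
SPRED2, chr2:65366729-65366755, minus strand, motif from 34 bases after the same start site: gtcaaggagacTGAATCAtatatgggg

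The kinases and targets that the 10 gene products act on were measured in the same libraries. Against a share of 64.3% of all genes, 6 of 7 genes listed for RAF, MEK and ERK kinases and their scaffolds had a base mean of at least 5. Of these, MAP2K1, the gene of MEK1, had a base mean of 190, and the scaffold gene KSR2 was the low one at 2.99. MAPK3, the gene of ERK1, had a base mean of 177. All 8 genes for other MAP kinases passed a base mean of 5, with a median of 83.8, and the JNK gene MAPK9 led with 282. All 6 genes for RAS proteins and the proteins that switch them off passed, with a median of 357, led by NF1. All 8 genes for adaptors and exchange factors passed, with a median of 190, led by GRB2 at 724.

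Where 64.3% of all genes had a base mean of at least 5, 9 of 14 genes listed for growth factor receptors did, also 64.3%. FGFR1 led them with 1945, EGFR had 327, and FGFR2 (0.749), FLT1 (0.199) and PDGFRB (4.14) were below 5. For PDGFRA and KDR no value was used. Of 9 genes for known partners of Sprouty and SPRED proteins, 8 passed, led by the caveolin gene CAV1 at 13006, with the receptor gene KIT at 2.32. All 13 listed targets of ERK passed, with a median of 197, from FOS at 30.3 to the cyclin gene CCND1 at 1085. The median of the 10 inhibitors, 110, thus lay below the medians of the adaptors, of RAS and its regulators, of the partners and of the ERK targets in base mean, and above those of the other MAP kinases and of the receptors. Per kb of exon the inhibitors' median of 23.9 lay above that of the adaptors, 19.3, and of the partners, 14.8. It lay below those of RAS and its regulators, 43.6, and of the ERK targets, 59.9. Their place among these lists thus differed between base mean and base mean per kb of exon union. The exon union joins all transcripts of a gene, and list medians per kb of canonical transcript were not computed.

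**Figure D4:**
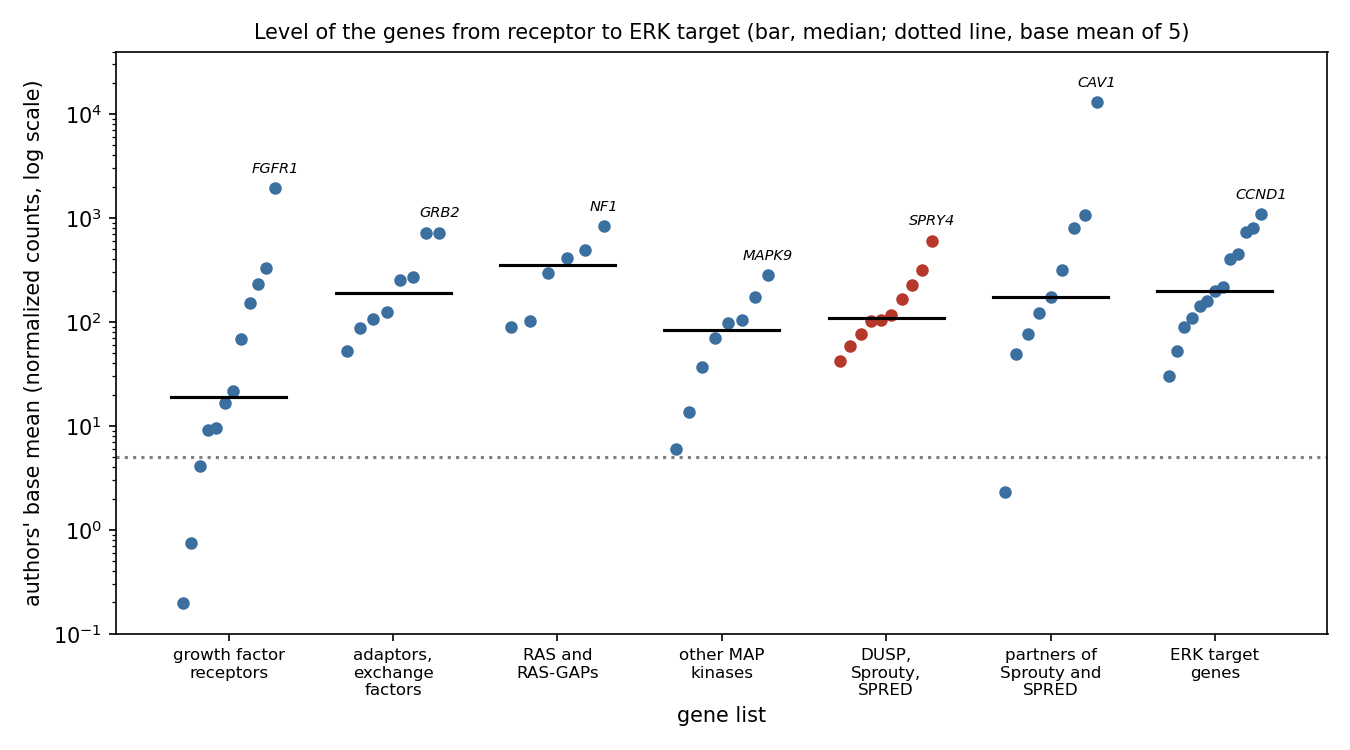
Authors' base mean (log scale) of each gene of 7 lists from receptors to ERK targets, 1 point a gene, with a bar at the median of the list, a dotted line at 5 and the highest gene named. The 10 inhibitors (red) lie between 41.7 and 607, a narrower range on the log scale than that of the receptors, from 0.199 to 1945.

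The label of the cells was checked against marker genes. Against a share of 64.3% of all genes, 9 of 12 podocyte markers had a base mean of at least 5. These included VIM (19062), ACTN4 (14320) and CD2AP (929), which many cell types also use, and MME (116), while WT1 (6.21), SYNPO (22.8) and PODXL (15.3) were low, PTPRO (0.333) was below 5, and no value was used for LMX1B and for NPHS1, the gene of the slit diaphragm protein nephrin. Of 5 endothelial markers 0 reached 5, with TEK (0.690), VWF (0.434) and CDH5 (0.306) measured, and of 5 leukocyte markers 0 reached it, with CD68 (1.06) and PTPRC (0.832) measured. Of 6 tubular markers 2 reached 5, AQP1 (243) and EPCAM (76.3), CDH1 was at 0.546, and no value was used for the others. Of 5 mesangial and fibroblast markers 2 reached it, COL1A1 (2733) and ACTA2 (1021), PDGFRB was at 4.14, and no value was used for the others. The part of these marker levels in the levels of the 10 genes was not tested. Of the sum of all base means, 34.8% came from 22 genes of the mitochondrial genome.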

How the data were processed

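RNA of 3 vehicle and 3 levamisole cultures was sequenced by an adapted CEL-seq protocol. Per the labels and methods, the authors trimmed reads with Trim Galore 0.4.5, mapped them to GRCh38 with STAR 2.7.5a, counted them per gene with HTSeq 0.11.0 at default settings on Ensembl 95, and ran DESeq2 1.22.0. The base mean deposited by the authors is a signal in normalized counts, pooled over the libraries of their fit. Their table also holds their log2 fold changes, errors, Wald statistics and p-values, which are their own comparison and were not used. With no values per culture, no group was compared and depth per library is unknown.

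Percentiles (share of genes with a lower base mean), list medians and levels per kb were computed in Python 3.11.15 with pandas 2.3.3 and NumPy 2.4.6, and figures drawn with matplotlib 3.10.9. Exon lengths (union of exons) and positions come from GENCODE 44 on GRCh38, a later annotation of the same assembly, which matched 20599 of 20745 gene identifiers. The motif search was tested on simulated data. The 10 genes, the gene lists and the motifs were chosen with earlier results of these data known, and the motifs also with the start-site windows seen. The genes named were the 10, every gene of their families, and the highest and the lowest (base mean under 5) genes of each list; MAPK3, EGFR, FOS and the marker genes named were chosen after their values were seen. Some genes first listed are not reported here and were taken off the lists, so that no median is given for the RAF, MEK and ERK list, while listed genes without a value stay in the number listed and not in the medians. Planned protein comparisons were not run.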

Additional observations from a re-analysis of the deposited data

How the results depend on the processing

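No paired analysis was possible because the table used holds no value per culture, and for the same reason no replicate was left out and no other test was run. The median percentile of the 10 genes, 72.3 among all genes, was 56.9 among genes whose base mean reached 5 and 32.8 (over 9 genes, without SPRY1) among those that reached 50. Their share of the summed base means, 0.0286%, was 0.0439% without the mitochondrial genes. All 10 passed a base mean of 10 and 9 passed 50. The range from the highest to the lowest of the 10 was 14.6-fold in base mean (SPRY4 over SPRY1) and 15.5-fold per kb of exon (DUSP5 over DUSP4). These are different pairs of genes, and SPRY4 over SPRY1 was 8.80-fold per kb of exon. Of the 10 places in the order, 9 changed per kb of exon, and 9 per kb of the canonical transcript, an alternative chosen after the data were seen. The protein identity alternative was not run, since no protein sequences were used here.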
